A study of Rattus norvegicus with 6 samples.

Results

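Serpins are a superfamily of proteins that share 1 fold, and most of them inhibit proteases. An inhibitory serpin offers an exposed reactive centre loop to a protease as bait. After cleavage the loop inserts into the body of the serpin and the protease stays trapped and inactive. Vertebrate members are grouped into clades named by letter. Clade A holds plasma inhibitors made mainly by liver and hormone carriers with no inhibitory activity, clade B holds serpins that mostly stay inside the cell, and the smaller clades C to I hold regulators of clotting, fibrinolysis and complement, a collagen chaperone and neuroserpin. In the female tract the proteases they face include those of leukocytes, of semen and of the plasminogen system.

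The Serpin genes were taken as all genes with a symbol starting with Serpin on the array, each from a probe set annotated with that symbol alone, with the probe set of highest mean kept per gene. This gave 36 genes, each with 1 such probe set, among 14506 genes in all. A further 2 probe sets carried several Serpin symbols (Serpina11 with Serpina9, and Serpina9 with Serpina12) and were set aside. All 36 genes were found by Entrez identifier, under the same symbol, in RefSeq's table of rat genes (assembly GRCr8), which lists 49 protein-coding genes with a Serpin symbol.

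The samples were endosalpinx, the mucosa that lines the oviduct, from 6 adult female Sprague-Dawley rats, 3 mated and 3 unmated, with 1 Affymetrix array for each animal. Mated rats had joined fertile males on the evening of pro-estrus, at 2200 h. A vaginal plug, or sperm in the smear, was found 30 min later. They stayed with the males until killed at 0130 h on the day of estrus, which was 3 h past mating. Unmated rats were kept isolated and killed at the same hour. The labels give abundant semen in the uterus for the mated animals and uterine edema for the unmated ones. No animal carried a transgene or received a drug, and the company of a male cannot be told apart from mating. The deposited values are log2 signals after RMA. Signals of different probe sets are not amounts of RNA, since probes differ in brightness, so a gene is placed only against a guide to background: the 95th percentile of the mean signals of 1256 olfactory, vomeronasal and trace amine receptor genes, which was 7.13. Genes whose mean over all arrays is at or below it are called within the receptor range. Of the fixed markers, all 6 of epithelium and all 5 measured of ciliated epithelium lay above that range. So did Pax8 and Wt1 of the 3 measured secretory cell markers, while Msx2 did not. Of 7 liver and plasma markers only Ahsg did. Markers of other cells lay above it too: 6 of 6 of smooth muscle, 6 of 7 of fibroblast and 5 of 6 of macrophage. The count was 4 of 5 measured of endothelium and 2 of 2 measured of mesothelium, whose list shares Wt1 with the secretory list. For mast cells it was 1 of 6, for cytotoxic lymphocytes 2 of 9 and for neutrophils 0 of 6. The tissue is bulk, so fewer cells of a type and less RNA per cell cannot be told apart.

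Of the 36 Serpin genes, 13 (36.1%) lay above the receptor range, against 71.1% of all genes. In clade A this was 1 of 13 genes, Serpina1. In clade B it was 6 of 14, namely Serpinb1a, Serpinb6a, Serpinb5, Serpinb11, Serpinb9 and Serpinb3. The members of clades C, D and E analysed here (Serpinc1, Serpind1 and Serpine2) lay within it. The members of clades F (Serpinf1 and Serpinf2), G (Serping1), H (Serpinh1) and I (Serpini1 and Serpini2) all lay above it. The inhibitors of clotting, antithrombin (Serpinc1, mean log2 signal 6.80 over all arrays) and heparin cofactor II (Serpind1, 6.37), were thus not separated from background. The same held for protease nexin-1 (Serpine2, 6.30).

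**Figure D1:**
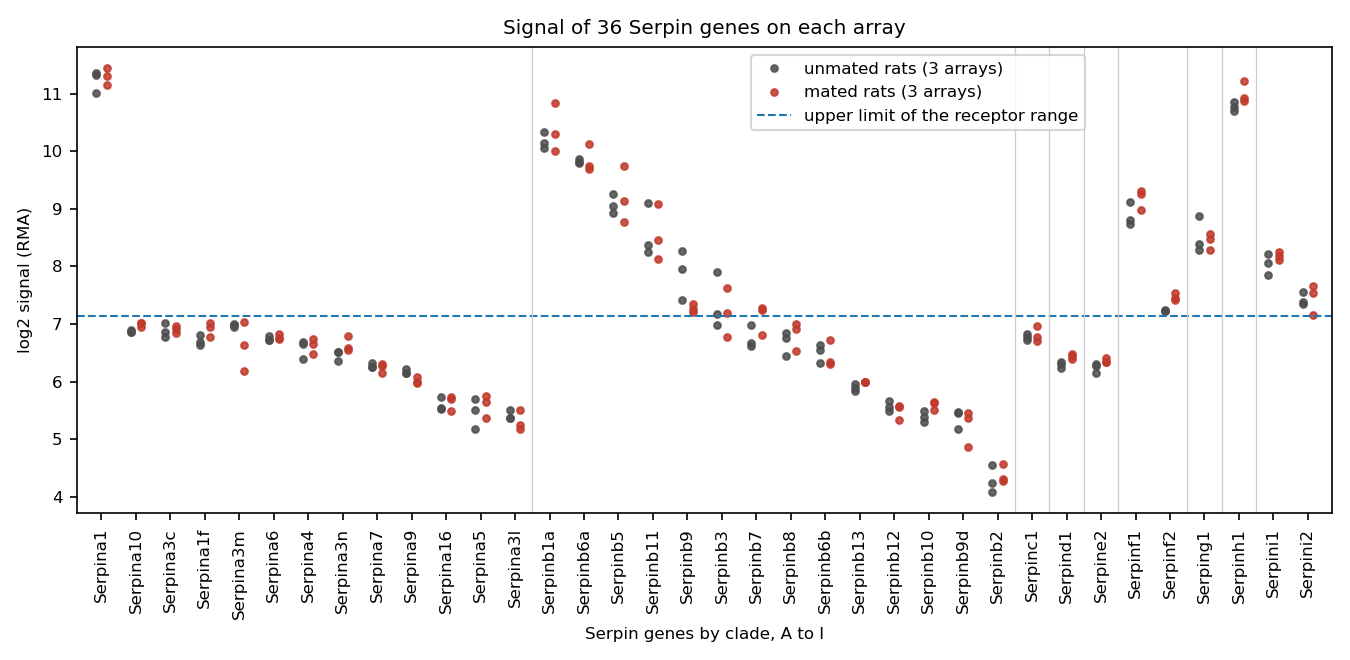
Log2 signal (RMA, vertical axis) of the 36 Serpin genes on each of the 6 arrays, by clade from A to I and, within a clade, by mean signal; grey points are unmated and red points mated rats. The dashed line is the upper limit of the receptor range, 7.13; in clade A only Serpina1 lies above it, while every gene of clades F to I has a mean above it.

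No Serpin gene passed the threshold of an adjusted p under 0.05 in the comparison of mated and unmated rats (limma, Benjamini-Hochberg adjustment over 14506 genes; background 0%). The smallest adjusted p among them was 0.984. At an unadjusted p under 0.05 there were 6 of 36 (16.7%), against 4.57% of all genes. Within the receptor range these were 3 of 23 (13%), namely Serpinb10, Serpinb7 and Serpina1f, against 7.15% of all genes in that range. Above it they were 3 of 13 (23.1%), against 3.52% of all genes above it. Serpinb9 lay lower in mated rats, where 1.55% of all genes did so with such a p, and Serpinf2, Serpinf1, Serpinb10, Serpinb7 and Serpina1f lay higher, where 3.02% did. The count was 3 without unmated replicate 2, unmated replicate 3 or mated replicate 2, where 2.98%, 5.81% and 3.87% of all genes had such a p. Without mated replicate 1 it was 8, against 9.67% of all genes. It was 3 with the replicate number as a block, against 4.63% of all genes. Serpinb9 and Serpinf2 were in each of these sets. The split of such calls moved with the scaling of the arrays. Over all genes it was 438 higher and 225 lower in the deposited values, 393 and 299 once quantiles were normalized again, and 336 and 294 after median centring. Under each of the latter scalings 4 Serpin genes had such a p, against 4.77% and 4.34% of all genes, and both sets held Serpinb9 and Serpinf2.

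The mated values all lay on 1 side of the unmated values for 10 Serpin genes (27.8%), against 8.47% of all genes. They were higher for 8 genes (Serpina10, Serpina3n, Serpinb10, Serpinb13, Serpind1, Serpine2, Serpinf2 and Serpinh1), against 5.24% of all genes, and lower for 2 (Serpina9 and Serpinb9), against 3.23%. The gap between the groups was 0.07 log2 units or less in all of these but Serpinf2, where it was 0.18. The count was 8 after quantiles were normalized again (9.35% of all genes) and 8 after median centring (8.56%). Of the 10 genes, 7 lay within the receptor range, where 9.93% of all genes had groups that did not overlap.

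In direction, 25 Serpin genes lay higher and 11 lower in the deposited values of mated rats, 22 and 14 once quantiles were normalized again, and 25 and 11 after median centring. Over all genes 53.2% lay higher in the deposited values, 51.2% once quantiles were normalized again and 46.6% after median centring, so that the direction of the majority turned with the scaling. Among genes within the receptor range the share in the deposited values was 62.9%, and of the 23 Serpin genes there 16 (69.6%) lay higher. The median difference, mated minus unmated, was 0.06 log2 units over the Serpin genes and 0.01 over all genes; the former was 0.10 without unmated replicate 3 and 0.11 without mated replicate 2. By clade it was 0.04 for the 13 genes of A, 0.06 for the 14 of B, 0.27 for the pair in F and 0.08 for the pair in I. The single members of the other clades differed by 0.05 (C), 0.14 (D), 0.12 (E), -0.07 (G) and 0.23 (H).

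**Figure D2:**
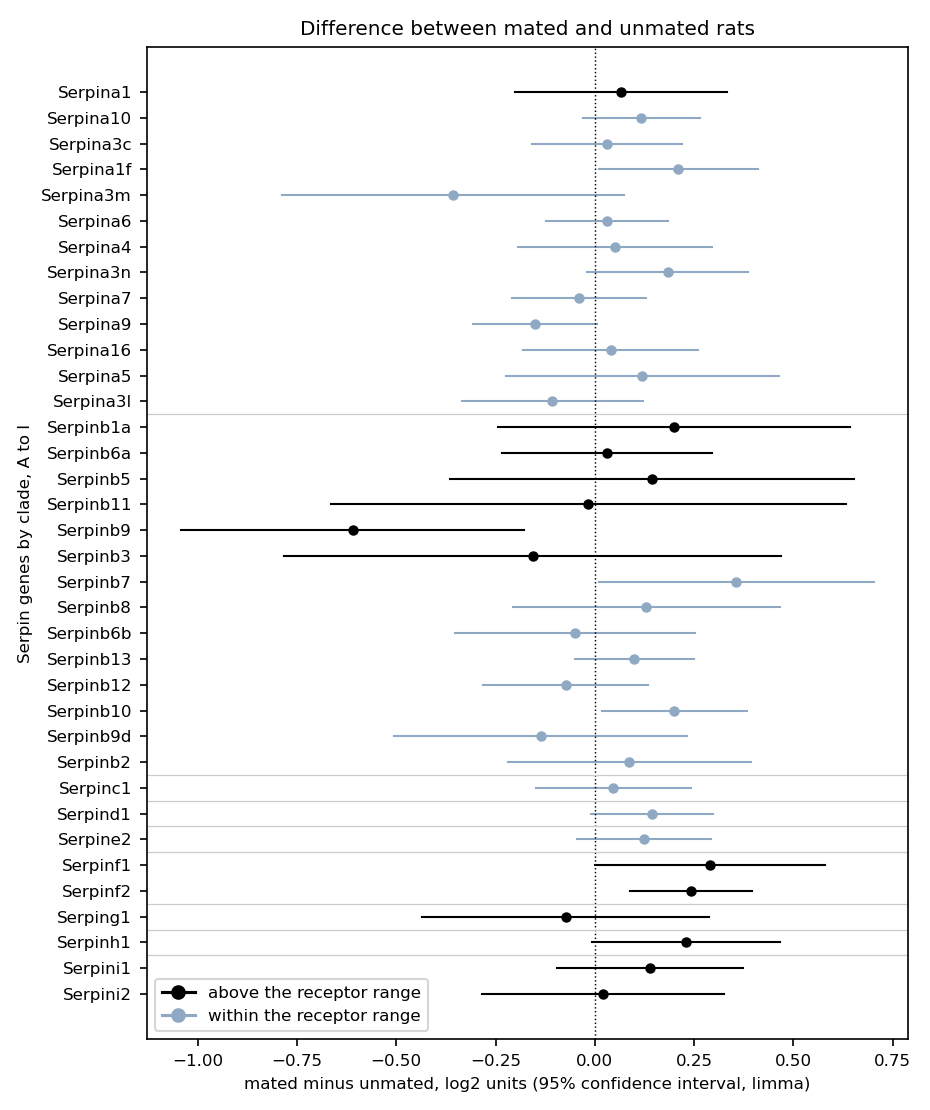
Difference between mated and unmated rats in log2 units (horizontal axis, mated minus unmated) with its unadjusted 95% confidence interval from limma, for 36 Serpin genes by clade; black marks genes above and blue genes within the receptor range. Serpinb9, at -0.61, lies farthest from 0, and the interval of Serpinf2 runs from 0.09 to 0.40.

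Serpinb9 encodes the inhibitor of granzyme B, the cytotoxic protease of killer lymphocytes, and guards cells against it from within. It was singled out because of its value in these data, so its difference is given as a description. The 3 unmated rats had log2 signals of 7.96, 8.26 and 7.42, and the 3 mated rats 7.26, 7.35 and 7.20. The mated values lay close together and just above the receptor range, the unmated values were spread over 0.84 log2 units, and the nearest values of the groups were 0.07 apart. The unmated mean was 7.88 ± 0.43 and the mated mean 7.27 ± 0.08 (SD, n = 3 each), which differ by -0.61 log2 units (95% confidence interval -1.04 to -0.18; limma adjusted p = 0.984), or 1.53-fold lower. It was the only Serpin gene among the 19 genes of all (0.131%) with an unadjusted p under 0.05 and a change of at least 1.5-fold. Without unmated replicate 2 the difference was -0.42, and without unmated replicate 3 it was -0.84.

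The sequence before the start of Serpinb9 is shown because it is the Serpin gene of largest difference. It is the stretch of 250 bases that ends just before the transcription start in RefSeq, GRCr8, chr17:31640817-31641066, minus strand, written 5′ to 3′. Capitals mark a match, read on the opposite strand, to GAAANNGAAA, the core of the element bound by interferon regulatory factors, at bases -69 to -60 before the start.
Serpinb9: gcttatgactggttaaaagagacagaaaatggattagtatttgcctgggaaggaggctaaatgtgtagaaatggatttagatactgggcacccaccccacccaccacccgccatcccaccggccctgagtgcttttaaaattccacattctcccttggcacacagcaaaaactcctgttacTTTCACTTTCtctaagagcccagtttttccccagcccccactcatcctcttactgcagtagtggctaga
The promoter table held 29 of the 36 genes. On either strand, GAAANNGAAA occurred in the upstream window of 2 of them, Serpinb9 and Serpinb2, and in 3.29% of 27457 windows of all genes. TATAAA, the TATA box, occurred in 5 of the 29 (Serpinb13, Serpinb1a, Serpinb3, Serpinb7 and Serpini2) and in 13.1% of all windows. The estrogen response element GGTCANNNTGACC occurred in 0 of the 29 and in 0.0219% of all windows. A match is only a description of the letters in the window.

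Gzmb, granzyme B, is the protease that Serpinb9 blocks. It had log2 signals of 8.29, 8.01 and 8.20 in unmated and 8.07, 8.35 and 8.25 in mated rats. The groups overlapped, with a difference of 0.06 (95% confidence interval -0.18 to 0.29). Of the 9 markers of cytotoxic lymphocytes, 2 (Gzmb and Cd8a) lay above the receptor range, 5 were higher and 4 lower in mated rats. The mean of the list lay between 6.82 and 6.91 on the unmated and between 6.77 and 6.92 on the mated arrays. Other granule genes were mostly dim. Gzmc, a further granzyme, lay within the receptor range and differed by -0.27 (-0.51 to -0.03), and Prf1, perforin, by 0.11 (-0.04 to 0.26). Of the marker list, Nkg7 differed by -0.23 (-0.45 to -0.003) and Ncr1 by 0.16 (-0.01 to 0.33), both within the receptor range.

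Serpinb9 lies in a run of clade B genes in the RefSeq gene order, in which consecutive Serpin genes have at most 5 other protein-coding genes between them. The run holds 9 Serpin genes, of which 5 were measured: Serpinb6a, Serpinb9d, Serpinb9, Serpinb6b and Serpinb1a. The other 4 differed by -0.14 (Serpinb9d), -0.05 (Serpinb6b), 0.03 (Serpinb6a) and 0.20 (Serpinb1a), and the groups overlapped for each. The paralogue Serpinb9d had log2 signals of 5.45, 5.17 and 5.47 in unmated and 4.86, 5.36 and 5.46 in mated rats. It lay within the receptor range, and its direction rested on mated replicate 1, without which it was 0.05. Paralogues of this run are close in sequence, and the array could share signal between them. Serpinb6a, an intracellular inhibitor of cathepsin G and other proteases, had 9.87, 9.79 and 9.81 in unmated and 10.12, 9.69 and 9.75 in mated rats. The unmated values lay within 0.08 of each other and inside the range of the mated values.

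**Figure D3:**
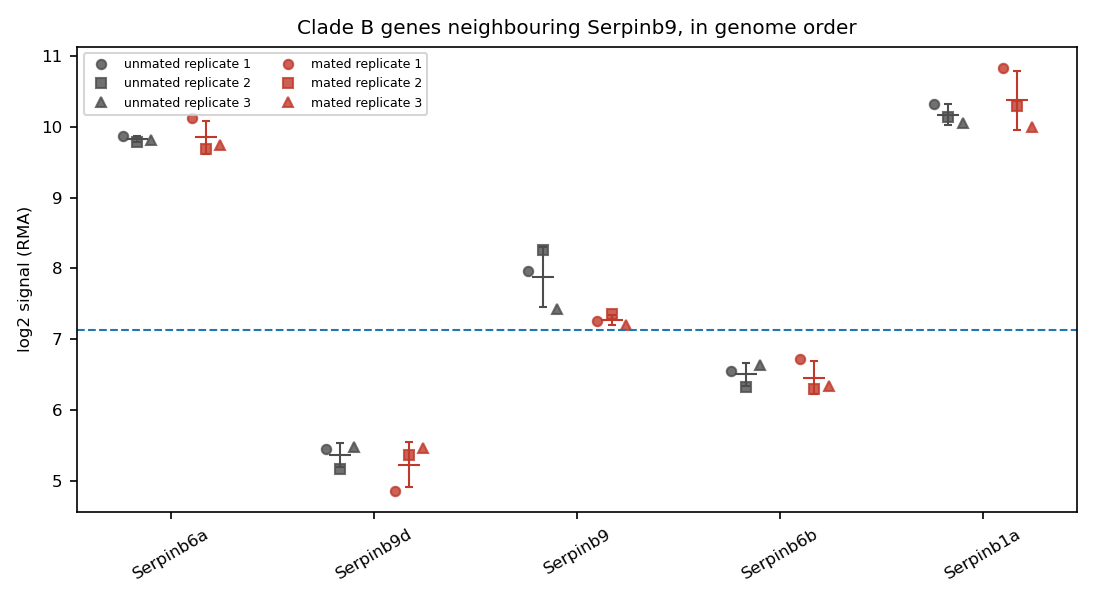
Log2 signal (RMA, vertical axis) of the 5 measured clade B genes of the run around Serpinb9, in genome order; grey points are unmated and red points mated rats, the shape gives the replicate, and bars are the mean ± SD of 3 arrays. The dashed line is the upper limit of the receptor range; the groups are apart for Serpinb9 and overlap for the other 4.

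Several clade B serpins varied more between animals of 1 group than between the groups, as did genes of other clades such as Serpina1 and Serping1. Serpinb1a, an inhibitor of neutrophil elastase and cathepsin G, had 10.33, 10.14 and 10.05 in unmated and 10.83, 10.29 and 10 in mated rats, with mated replicate 1 highest. Serpinb5 (maspin, an epithelial serpin with no inhibitory activity) had 8.92, 9.04 and 9.25 in unmated and 9.74, 8.77 and 9.13 in mated rats, again with mated replicate 1 highest. Without that array the difference of Serpinb1a went from 0.20 to -0.03 and that of Serpinb5 from 0.14 to -0.12. Its removal also moved the share of all genes at an unadjusted p under 0.05 from 4.57% to 9.67%.

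Serpinb11 and Serpinb3, neighbours in a second run of clade B genes, were both highest in unmated replicate 2 and mated replicate 1. Serpinb11 had 8.25, 9.10 and 8.37 in unmated and 9.09, 8.13 and 8.45 in mated rats. Serpinb3, of the squamous cell carcinoma antigen group, had 6.98, 7.90 and 7.17 in unmated and 7.62, 6.77 and 7.19 in mated rats. The mean differences were -0.02 (95% confidence interval -0.67 to 0.63) and -0.16 (-0.78 to 0.47), with both directions turned without unmated replicate 2 (0.25 and 0.12) or without mated replicate 2 (0.20 and 0.06). That of Serpinb11 also turned without mated replicate 3 (0.04). The range over the 6 arrays, 0.97 and 1.13 log2 units, compared with 1.06 for Serpinb9.

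The mean of the 5 measured ciliated cell markers, all above the receptor range, was 10.72, 10.93 and 10.85 on the unmated and 10.94, 10.67 and 10.69 on the mated arrays, so that this mean too was highest in unmated replicate 2 and mated replicate 1 within the groups. The single markers did not all follow it: 3 of the 5 were highest among unmated rats in replicate 2, 4 were highest among mated rats in replicate 1, and 2 (Rsph1 and Ccdc39) showed both. The mean of the 6 epithelial markers was 12.54, 12.43 and 12.68 on the unmated and 12.56, 12.53 and 12.68 on the mated arrays and did not follow that order. Of the fixed marker lists, only the ciliated and epithelial ones are set against that order here. The part of ciliated cells in the values of Serpinb11 and Serpinb3 was not tested.

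**Figure D4:**
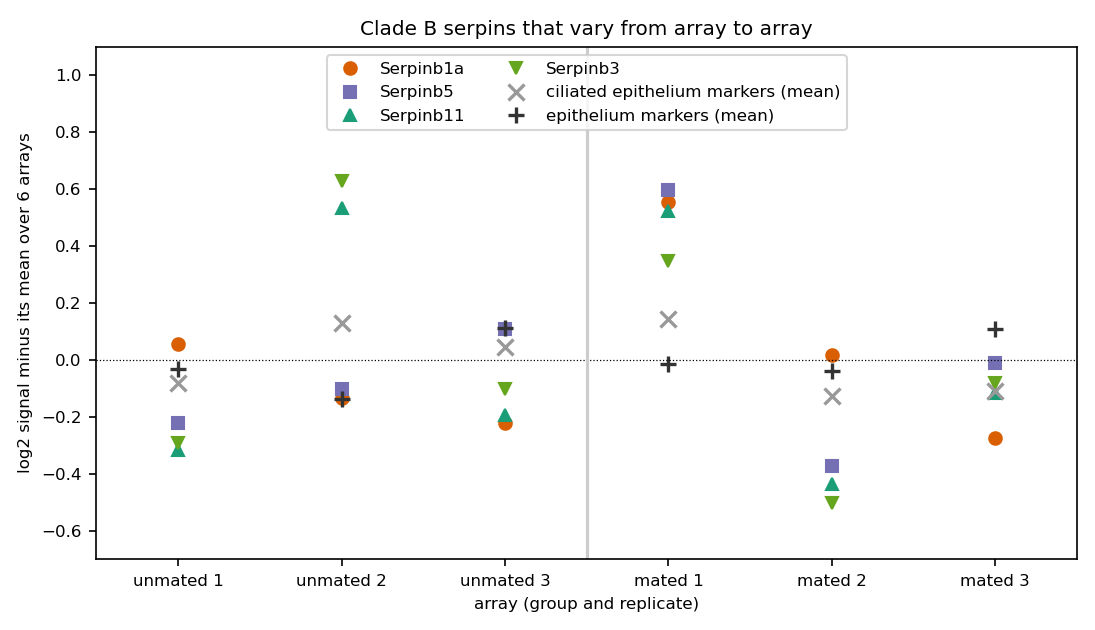
Log2 signal minus its mean over the 6 arrays (vertical axis) for Serpinb1a, Serpinb5, Serpinb11 and Serpinb3 and for the means of the ciliated and epithelial marker lists, on each array (horizontal axis). Serpinb11, Serpinb3 and the mean of the ciliated list are highest in unmated replicate 2 and mated replicate 1, and Serpinb1a and Serpinb5 in mated replicate 1.

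The second run, which also includes Serpinb5, holds 10 Serpin genes in RefSeq, of which 9 were measured. Serpinb5, Serpinb11 and Serpinb3 lay above the receptor range and the others within it. Serpinb7 (megsin) had 6.61, 6.67 and 6.98 in unmated and 7.28, 7.25 and 6.80 in mated rats, with mated replicate 3 inside the unmated range. Its difference was 0.36 (95% confidence interval 0.01 to 0.70). Serpinb10 (bomapin, known from blood cell precursors) had 5.30, 5.49 and 5.38 in unmated and 5.50, 5.64 and 5.63 in mated rats. Its groups were 0.01 apart, and it differed by 0.20 (0.02 to 0.38). Serpinb2, the plasminogen activator inhibitor PAI-2, lay within the receptor range with a mean of 4.33 over all arrays and differed by 0.09. Serpinb8, an inhibitor of furin, differed by 0.13 and Serpinb13, an inhibitor of lysosomal cathepsins, by 0.10. Serpinb12 differed by -0.07.

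Clade F comprised a pair of adjacent genes, both higher in mated rats. Serpinf2 encodes alpha-2-antiplasmin, the main inhibitor of plasmin. Its log2 signals were 7.22, 7.24 and 7.22 in unmated and 7.42, 7.54 and 7.45 in mated rats. The unmated values lay within 0.02 of each other and all mated values lay above them, though the gene is only a little above the receptor range. The means were 7.23 ± 0.01 and 7.47 ± 0.06 (SD, n = 3 per group), a difference of 0.24 (95% confidence interval 0.09 to 0.40; limma adjusted p = 0.984). It ranked at position 77 of 14506 genes by p, and Serpinb9 at 141. Leaving out any 1 array gave differences from 0.21 to 0.27.

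Serpinf1 encodes pigment epithelium-derived factor, a secreted serpin that does not inhibit proteases and acts against vessel growth. Its log2 signals were 9.12, 8.80 and 8.74 in unmated and 8.98, 9.30 and 9.25 in mated rats. Unmated replicate 1 lay above mated replicate 1, so the groups overlapped. The difference was 0.29 (95% confidence interval 0.001 to 0.58; limma adjusted p = 0.984).

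The stretches of 250 bases before the starts of these neighbours are given because both genes lay higher in mated rats. Both are from RefSeq, GRCr8, minus strand, 5′ to 3′: chr10:60760899-60761148 for Serpinf1 and chr10:60778783-60779032 for Serpinf2. Neither window holds any of the 3 motifs above, so neither has capitals.
Serpinf1: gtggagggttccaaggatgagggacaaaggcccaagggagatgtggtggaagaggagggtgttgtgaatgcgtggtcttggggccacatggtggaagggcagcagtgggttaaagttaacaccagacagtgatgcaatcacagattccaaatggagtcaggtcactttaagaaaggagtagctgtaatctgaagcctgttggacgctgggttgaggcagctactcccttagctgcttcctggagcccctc
Serpinf2: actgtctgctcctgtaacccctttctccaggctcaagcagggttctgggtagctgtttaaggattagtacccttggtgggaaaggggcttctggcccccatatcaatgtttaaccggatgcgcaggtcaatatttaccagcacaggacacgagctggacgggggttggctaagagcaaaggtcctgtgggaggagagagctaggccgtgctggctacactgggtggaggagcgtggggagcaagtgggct

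Serpinh1 encodes Hsp47, a chaperone of the endoplasmic reticulum that folds procollagen and inhibits no protease. Its log2 signals were 10.85, 10.77 and 10.69 in unmated and 10.92, 10.87 and 11.21 in mated rats. All mated values lay above the unmated ones by a gap of 0.02, with mated replicate 3 highest. The difference was 0.23 (95% confidence interval -0.01 to 0.47), and 0.13 without mated replicate 3. Of its 6 measured collagen clients, all above the receptor range, 3 were higher and 3 lower in mated rats, with differences from -0.05 to 0.07. The 3 lower clients, Col1a1, Col1a2 and Col3a1, are also in the fibroblast marker list, so the counts share genes. All 7 fibroblast markers were lower, from -0.46 (Dpt) to -0.01 (Col3a1), where 45.5% of all genes and 49.2% of those above the receptor range lay lower. Their mean lay between 7.50 and 7.88 on the unmated and between 7.46 and 7.61 on the mated arrays.

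Serping1, the C1 inhibitor that controls complement and the kinin system, had 8.88, 8.38 and 8.28 in unmated and 8.56, 8.28 and 8.48 in mated rats. Unmated replicate 1 was highest and the groups overlapped, with a difference of -0.07 (95% confidence interval -0.43 to 0.29), which turned to 0.11 without that array and to 0.01 without mated replicate 2. Of the 4 complement serine proteases measured (C1r, C1s, Masp1 and Masp2), 3 were lower and 1 higher, from -0.10 to 0.003.

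Serpina1 encodes alpha-1-antitrypsin, the plasma inhibitor of neutrophil elastase, and stood apart in its clade. Its log2 signals were 11.33, 11.35 and 11.01 in unmated and 11.15, 11.44 and 11.30 in mated rats. The groups overlapped, and the difference was 0.07 (95% confidence interval -0.20 to 0.33). It was -0.04 without unmated replicate 3 and -0.005 without mated replicate 2. Alb, albumin, and Ttr, transthyretin, which liver also releases into plasma, lay within the receptor range at means of 5.83 and 6.77. Ahsg, of the same marker list, lay above it at a mean of 9.34. The 3 genes for granule proteases of neutrophils (Elane, Ctsg and Prtn3) were all higher in mated rats, by 0.07 to 0.22. Over all genes 53.2% lay higher. Elane and Ctsg lay within the receptor range, where 62.9% of genes lay higher. Elane, neutrophil elastase, had 6.82, 6.89 and 6.93 in unmated and 7.08, 7.15 and 7.08 in mated rats. Its mean of 6.99 lay within the receptor range, with only mated replicate 2 above the limit. Of the 6 neutrophil markers, which include Elane, 0 had a mean above the receptor range. They differed by -0.02 (S100a9) to 0.26 (S100a8), with 5 higher and 1 lower and a median of 0.03, where 62.9% of genes in that range lay higher. Their mean lay between 6.25 and 6.42 on the unmated and between 6.36 and 6.46 on the mated arrays.

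**Figure D5:**
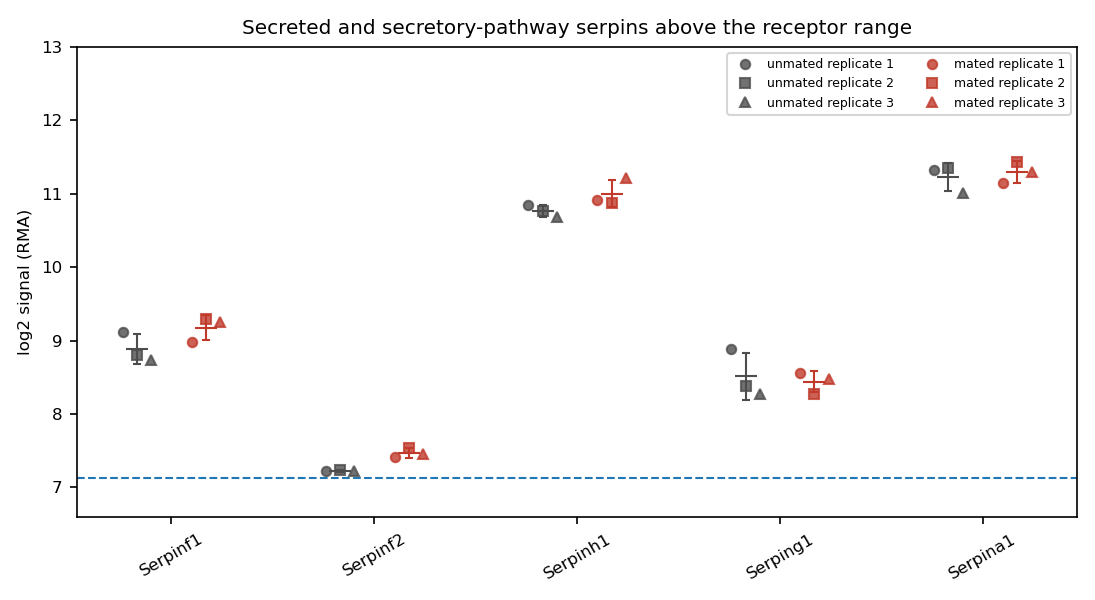
Log2 signal (RMA, vertical axis) of Serpinf1, Serpinf2, Serpinh1, Serping1 and Serpina1; grey points are unmated and red points mated rats, the shape gives the replicate, and bars are the mean ± SD of 3 arrays. The dashed line is the upper limit of the receptor range, 7.13; the groups do not overlap for Serpinf2 and Serpinh1 and overlap for the other 3.

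The remaining 12 genes of clade A had mean signals from 5.36 to 6.93 and were not separated from background. Their differences ran from -0.36 to 0.21, with 8 higher and 4 lower in mated rats. Serpina1f, a paralogue of alpha-1-antitrypsin, had 6.80, 6.63 and 6.69 in unmated and 6.78, 7.02 and 6.95 in mated rats, with mated replicate 1 inside the unmated range. Serpina3n, of the antichymotrypsin group that has multiplied in rodents, had 6.51, 6.36 and 6.51 in unmated and 6.55, 6.59 and 6.79 in mated rats, a gap of 0.04. Its relative Serpina3m differed by -0.36 (95% confidence interval -0.79 to 0.07). Its unmated values, 6.98, 7.0 and 6.94, were close together, while the mated values of 6.63, 6.18 and 7.04 spread over 0.86. The kallikrein inhibitor kallistatin (Serpina4), the protein C inhibitor (Serpina5), corticosteroid-binding globulin (Serpina6) and thyroxine-binding globulin (Serpina7) differed by 0.05, 0.12, 0.03 and -0.04. Serpina10, which inhibits clotting factor X with protein Z, differed by 0.12 with groups 0.05 apart, and Serpina9 (centerin, known from B cells) by -0.15 with groups 0.06 apart. Serpina16, Serpina3c and Serpina3l overlapped between the groups. The probe sets shared by Serpina11 and Serpina9, and by Serpina9 and Serpina12, had mean signals of 7.01 and 6.36 and differed by -0.01 and 0.02. Agt, angiotensinogen, has the serpin fold under another symbol. It lay within the receptor range and differed by 0.15 (-0.08 to 0.38).

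Among the inhibitors of the plasminogen and clotting systems, Serpini1 (neuroserpin, an inhibitor of tissue plasminogen activator) had 8.22, 7.85 and 8.05 in unmated and 8.18, 8.25 and 8.11 in mated rats. The groups overlapped, with a difference of 0.14 (95% confidence interval -0.09 to 0.37). Serpini2 is given here as the other gene of clade I, not as an inhibitor of these systems. It had 7.35, 7.55 and 7.38 in unmated and 7.66, 7.53 and 7.15 in mated rats, and differed by 0.02. Serpine2 had 6.27, 6.14 and 6.31 in unmated and 6.34, 6.34 and 6.41 in mated rats. Serpind1 had 6.34, 6.24 and 6.31 in unmated and 6.45, 6.47 and 6.40 in mated rats. In both of these dim genes the mated values lay above the unmated ones, by gaps of 0.03 and 0.06. Serpinc1 had 6.72, 6.82 and 6.78 in unmated and 6.71, 6.97 and 6.78 in mated rats. Its groups overlapped, and its difference of 0.05 was -0.03 without mated replicate 2.

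No protease or partner of the family passed the adjusted threshold by limma. Of 65 measured genes of 71 listed, 37 lay above the receptor range, 33 were higher and 32 lower in mated rats. At an unadjusted p under 0.05 there were 2 of the 65, Elane and Gzmc, which is no larger a share than the 4.57% of all genes. Plat, tissue plasminogen activator, had 13.26, 13.24 and 13.20 in unmated and 12.94, 13.08 and 13.47 in mated rats. The unmated values were close together, the mated values lay on both sides of them, and the difference was -0.07 (95% confidence interval -0.37 to 0.23). Plau, urokinase, differed by -0.04 (-0.26 to 0.19). Of the cysteine proteases and caspases 6 of 8 were lower, from -0.28 to 0.05. Of the coagulation and kinin genes 5 of 10 were higher, of the epithelial serine proteases 7 of 12, of the mast cell proteases 3 of 5, of the cytotoxic granule genes 3 of 7, of the plasminogen system 2 of 4, and of the cofactors and clearance receptors 3 of 5.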

How the data were processed

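RNA of 6 endosalpinx samples was measured on Affymetrix arrays, from 0.3 µg of total RNA each per the labels' protocols. The authors deposited log2 signals, 1 per probe set and array, made with RMA in Affymetrix Expression Console per the submitters' processing notes; the log2 scale was read from the values. RMA equalises the distributions of arrays, so a shift of most genes would not be seen, and it compresses changes of dim genes. For the genome build of the array design the sources used here give nothing. Of 29214 probe sets, 15310 had 1 gene symbol, 323 several and 13581 none listed. For each gene the probe set of highest mean was kept. limma 3.58.1 in R 4.3.3 (lmFit and eBayes, no covariates) was fitted to all 14506 genes and tested on simulated data; p-values are two-sided and intervals are not adjusted. The number of arrays limits the precision, and depth has no meaning for arrays. The members, lists and rule for named genes were chosen with earlier results of these data known. Values on all arrays were given for the brightest gene of each clade, the 5 largest differences in each direction above the receptor range (only 4 were negative), Serpin genes at an unadjusted p under 0.05, Serpinb9 and its paralogue, and textbook members; further genes named were chosen after their values were seen. Marker lists of smooth muscle, endothelium, macrophage, mast cell and mesothelium were also fixed. Alternatives were the replicate number as a block, a variance trend, array weights, 2 further scalings, removal of dim genes, the mean of all probe sets and leaving out each array.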

Additional observations from a re-analysis of the deposited data

How the results depend on the processing

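No Serpin gene passed the adjusted threshold under any of the 13 alternatives run. The count at an unadjusted p under 0.05, 6 as deposited, was 3 with the replicate number as a block and 3 of 13 genes after removal of genes within the receptor range (4.1% of all genes left), and ranged from 3 to 8 when 1 array was left out, where 2.98% to 9.67% of all genes had such a p. The count with groups that did not overlap, 10 as deposited, was 3 of 13 after that removal (7.88% of all genes left), and from 10 to 14 when 1 array was left out, where smaller groups overlap less easily and 14.6% to 26.8% of all genes did not overlap. The median difference, 0.06, was 0.042 after median centring and 0.044 to 0.105 when 1 array was left out. The replicate numbers share no source in the labels: same-numbered arrays deviated from their group means with correlations of 0.004, -0.083 and 0.074 over genes. Of the 19 named genes, 11 kept their direction under every alternative run, among them Serpinb9 (-0.84 to -0.42) and Serpinf2 (0.21 to 0.27), each of which had an unadjusted p under 0.05 in all 13. The replicate block, the variance trend and removal of dim genes leave each difference as it was, so they could not turn a direction. Nor could the mean of all probe sets, since each Serpin gene had only 1. Directions turned only when 1 array was left out. The ranges were -0.043 to 0.14 for Serpina1, -0.28 to 0.25 for Serpinb11, -0.028 to 0.39 for Serpinb1a, -0.37 to 0.12 for Serpinb3, -0.12 to 0.37 for Serpinb5, -0.25 to 0.047 for Serpinb9d, -0.028 to 0.10 for Serpinc1 and -0.19 to 0.11 for Serping1; the cause was not tested.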

Other observations

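Of the further marker lists, smooth muscle had 1 gene higher, 4 lower and 1 equal in mated rats, endothelium 3 higher and 2 lower of 5 measured, macrophages 3 and 3 of 6, mast cells 5 and 1 of 6, and mesothelium 1 and 1 of 2 measured. Tie1, an endothelial receptor, differed by 0.33 (95% confidence interval 0.08 to 0.58), while Emcn, endomucin of the same list, differed by -0.22 (-0.43 to -0.01) and Kdr, a receptor of vascular growth factor, by -0.12 (-0.50 to 0.26). Csf1r, the receptor of macrophage growth factor, differed by -0.13 (-0.29 to 0.03).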
